A study of Mus musculus with 16 samples.

Results

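The distribution of H2AK119ub1, histone H2A monoubiquitinated at a lysine of its C-terminal tail, was compared between wild type mouse embryonic stem cells (ES) and the neural precursor cells (NPC) derived from them, to see which peaks and which gene classes kept, lost or gained the mark during neural differentiation. The members were all peaks of the ES list and of the NPC list, 14426 of the 86279 peaks in the 10 peak lists of the series. An ES peak was called kept when an NPC peak overlapped it by at least 1 bp, and otherwise lost. An NPC peak was called shared when an ES peak overlapped it, and otherwise gained. A gene was counted as marked when a peak was centred no farther than 2500 bp from the start of any of its protein-coding transcripts, and such a peak is called a promoter peak. The ES were of the Sox1-GFP 46C line, which carries a fluorescent reporter of neural fate, and were grown on inactivated mouse embryo fibroblast feeders in medium with LIF, a cytokine that sustains self-renewal, and the 2i kinase inhibitors. The NPC were taken at day 6 of differentiation in suspension in a medium with knockout serum replacement. Chromatin of both stages was digested with micrococcal nuclease and precipitated with the same antibody to H2AK119ub1. Each stage had 1 library, so no difference below has a replicate error, and the 95% Wilson intervals given with shares cover counting error only. The files gave no read totals, and a list called in a deeper library can be longer, so the number of peaks and the depth of a library cannot be told apart. Nor can a mark carried by fewer cells be told apart from less of the mark per cell. Peak lists hold no expression, so the identity of the cells at each stage was not checked on their marker genes. Lists of H3K27me3 in the same cells and of H2AK119ub1 in PCGF5-depleted cells (shPCGF5 in the labels), also 1 library each, were read beside them as a description. So were lists of Flag-tagged PCGF5 in ES and NPC, 1 library each. Per the methods, these came from a separate knockin line made in Sox1-GFP cells. Its chromatin was crosslinked with EGS and formaldehyde and sonicated, and its peaks had a cutoff of their own.

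H2AK119ub1 is laid down by the RING1A and RING1B ubiquitin ligases of Polycomb repressive complex 1 (PRC1), and H3K27me3 by the EZH1 and EZH2 methyltransferases of Polycomb repressive complex 2 (PRC2). In ES both marks are known from CpG-rich promoters of silent developmental regulators, such as the Hox genes, where variant PRC1, PRC2 and canonical PRC1 recognise each other's marks. As cells take up a fate, Polycomb domains are known to be cleared from genes of the lineage and to be retained or extended over genes of other lineages.

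Stretches under 9 promoter peaks are shown first because the base composition of the classes differed, and because some of the highest peaks lay on simple repeats. Each is the forward strand of NCBIM37, the assembly behind mm9, with CpG dinucleotides in capitals. It covers the central 200 bp of the peak with the highest score at that gene (the whole peak of 181 bp at Coro2b). Annotated untranslated bases were left out, so the 200 bp at Krt71 are not centred on the peak. The kept peaks were those of Hoxa9 (chr6:52180631-52180830, intron, 15 CpG), Lhx5 (chr5:120884073-120884272, intron, 0 CpG) and Six3 (chr17:86021881-86022080, intron, 3 CpG). The lost peaks were those of Coro2b (chr9:62360356-62360536, intron, 0 CpG, a hexanucleotide repeat throughout), Krt71 (chr15:101573278-101573477, coding exon, 6 CpG) and Dll1 (chr17:15513560-15513759, intron, 13 CpG). The gained peaks were those of Tbx3 (chr5:120131696-120131895, intron, 1 CpG, with runs of TG and AG), Isl1 (chr13:117099369-117099568, intron, 2 CpG, with a run of CA) and Cdkn2a (chr4:88925785-88925984, intron, 1 CpG).
Hoxa9: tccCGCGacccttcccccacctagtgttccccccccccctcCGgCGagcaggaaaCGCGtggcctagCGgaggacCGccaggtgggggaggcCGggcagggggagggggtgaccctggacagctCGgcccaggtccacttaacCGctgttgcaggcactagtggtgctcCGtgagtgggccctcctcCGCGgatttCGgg
Lhx5: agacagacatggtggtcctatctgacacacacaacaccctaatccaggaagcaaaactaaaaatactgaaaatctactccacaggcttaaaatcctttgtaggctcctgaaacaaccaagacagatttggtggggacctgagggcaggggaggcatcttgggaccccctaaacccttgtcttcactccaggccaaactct
Six3: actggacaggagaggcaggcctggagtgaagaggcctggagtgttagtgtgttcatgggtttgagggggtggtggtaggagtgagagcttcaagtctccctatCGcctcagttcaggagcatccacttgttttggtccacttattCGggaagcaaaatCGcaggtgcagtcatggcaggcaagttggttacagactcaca
Coro2b: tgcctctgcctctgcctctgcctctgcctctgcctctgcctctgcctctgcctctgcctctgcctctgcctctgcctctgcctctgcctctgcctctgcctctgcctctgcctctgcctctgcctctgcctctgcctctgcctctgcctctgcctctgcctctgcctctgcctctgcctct
Krt71: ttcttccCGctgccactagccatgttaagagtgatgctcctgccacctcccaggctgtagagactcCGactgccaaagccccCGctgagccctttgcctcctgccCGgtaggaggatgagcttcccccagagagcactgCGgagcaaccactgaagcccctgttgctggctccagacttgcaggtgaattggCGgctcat
Dll1: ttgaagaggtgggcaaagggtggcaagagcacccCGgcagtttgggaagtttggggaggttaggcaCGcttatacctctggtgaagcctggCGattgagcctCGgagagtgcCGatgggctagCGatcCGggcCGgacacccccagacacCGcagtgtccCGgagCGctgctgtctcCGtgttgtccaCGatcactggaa
Tbx3: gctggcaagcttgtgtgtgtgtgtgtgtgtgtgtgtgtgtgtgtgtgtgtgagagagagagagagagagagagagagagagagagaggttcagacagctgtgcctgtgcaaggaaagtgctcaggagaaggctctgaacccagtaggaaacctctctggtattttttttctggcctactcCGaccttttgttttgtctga
Isl1: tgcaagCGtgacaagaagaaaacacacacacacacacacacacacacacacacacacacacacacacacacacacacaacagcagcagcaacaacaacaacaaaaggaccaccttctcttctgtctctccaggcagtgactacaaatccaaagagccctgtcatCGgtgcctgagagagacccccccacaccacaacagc
Cdkn2a: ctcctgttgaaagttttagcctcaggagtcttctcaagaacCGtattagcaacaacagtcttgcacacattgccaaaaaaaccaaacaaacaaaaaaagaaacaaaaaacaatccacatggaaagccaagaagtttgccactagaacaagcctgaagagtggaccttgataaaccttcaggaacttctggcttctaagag
The GC content of these stretches was 71% at Hoxa9, 48.0% at Lhx5, 53.0% at Six3, 66.3% at Coro2b, 60.5% at Krt71, 61.5% at Dll1, 49.5% at Tbx3, 51.0% at Isl1 and 40% at Cdkn2a. The 3 gained stretches held 1 or 2 CpG, while the kept and lost stretches ran from 0 to 15.

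Most peaks were found at 1 stage only. Of 8672 ES peaks, 1425 were kept (16.4%, 15.7 to 17.2) and 7247 were lost. Of 5754 NPC peaks, 1376 were shared (23.9%) and 4378 were gained. The kept peaks were promoter peaks more often than either other class, at 52.1% (49.5 to 54.7), against 25.8% of the lost peaks (24.8 to 26.8) and 37.8% of the gained peaks (36.4 to 39.2). Lost peaks lay more often within genes, with 32.1% in introns and 6.31% in coding exons, where the gained peaks had 17.4% and 0.959%. Gained peaks were most often intergenic, at 41.6% (40.2 to 43.1), against 34.4% of the lost and 22.8% of the kept peaks. The gained peaks stayed nearer to start sites than the lost ones, with a median distance of 4226 bp against 13020 bp, and 2327 bp for the kept peaks. An ES peak lay within 10 kb of 52.9% of the gained peaks (51.4 to 54.3), and an NPC peak within 10 kb of 19.1% of the lost peaks. The lists searched differed, with 8672 ES and 5754 NPC peaks, so these shares do not have the same reference. Kept peaks were wider in their ES library, with a median of 309 bp against 207 bp for lost peaks, and shared peaks were wider in the NPC library, with 402.5 bp against 242 bp for gained peaks. The median fold enrichment over background, as the peak caller of the authors gave it, was 5.02 for kept and 4.58 for lost peaks in ES, and 4.24 for shared and 4.42 for gained peaks in NPC.

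**Figure D1:**
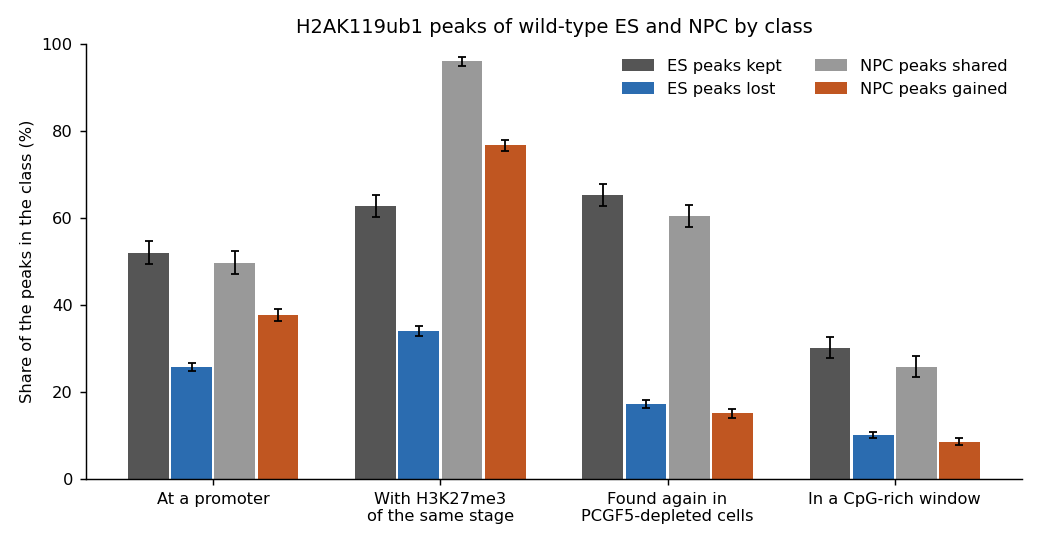
Share of H2AK119ub1 peaks, in percent, that lay at a promoter, overlapped H3K27me3 of the same stage, were found again in PCGF5-depleted cells of the same stage, or had a CpG-rich window, for the 1425 kept and 7247 lost ES peaks and the 1376 shared and 4378 gained NPC peaks. Bars are shares with 95% Wilson intervals, and in each of the 4 properties the peaks common to both stages had the higher share within their stage.

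Peaks with H3K27me3 were kept more often than peaks without it, with 26.6% against 10.0% of ES peaks. H3K27me3 of ES overlapped 62.7% of the kept peaks (60.2 to 65.2) and 34.1% of the lost peaks (33.0 to 35.2). H3K27me3 of NPC overlapped 96.2% of the kept peaks and 19.4% of the sites of lost peaks (18.5 to 20.3). By the class rule a kept site holds an NPC peak and a lost site does not. Of all NPC peaks 81.3% overlapped H3K27me3 of NPC, so this contrast is largely tied to the rule. Among NPC peaks H3K27me3 of NPC overlapped 96.0% of the shared and 76.7% of the gained peaks (75.4 to 77.9). In ES 15.3% of the sites of gained peaks had H3K27me3 (14.2 to 16.4). Gained sites hold no ES peak by the same rule, so 76.7% against 15.3% is tied to it as well. Read the other way, 35.2% of the 1415 ES promoter peaks with H3K27me3 were kept (32.7 to 37.7), 20.4% of the 1198 promoter peaks without it, 20.3% of the 1950 other peaks with it, and 6.98% of the 4109 peaks with neither (6.24 to 7.80). Peaks that the library of PCGF5-depleted ES also held were kept in 42.6% of cases (40.5 to 44.7), and peaks absent from it in 7.62%. Kept shares were also larger at higher scores, with 10.3% in the lowest decile of the ES list and 29.8% in the highest. With H3K27me3 they were 18.2% and 31.9% and without it 8.25% and 17.8%, and the peaks with H3K27me3 had the higher share in every decile. By chromosome the kept share ran from 2.44% on the X chromosome, with 2 of 82 peaks (0.671 to 8.46), to 27.1% on chromosome 6, where 61 of the 174 kept peaks lay in the bin of the Hoxa cluster and 46 in an array-like bin described below.

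**Figure D2:**
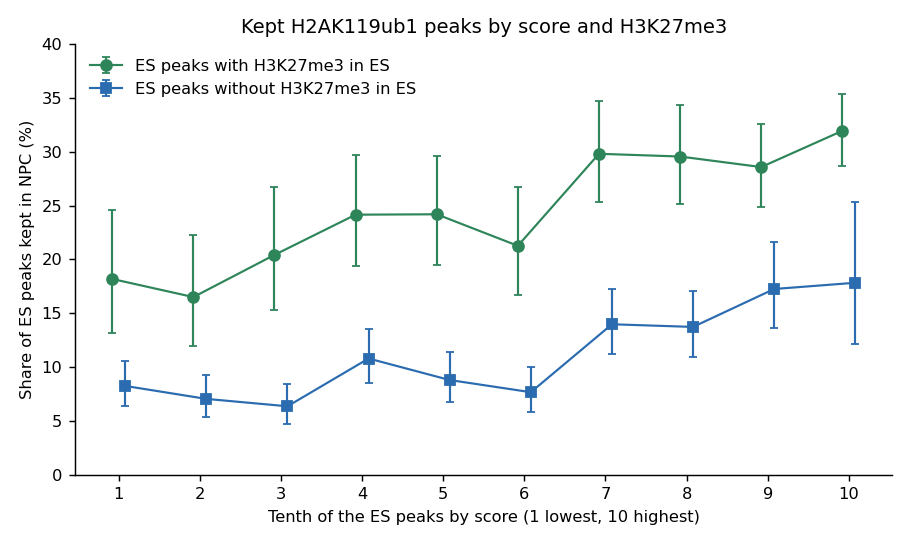
Share of wild type ES peaks kept in NPC, in percent, by decile of the ES list ranked by score (1 lowest, 10 highest), for peaks with and without H3K27me3 in ES. Points are shares with 95% Wilson intervals, and peaks with H3K27me3 went from 18.2% to 31.9% while those without it went from 8.25% to 17.8%.

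The bases under the peaks differed between classes. In the 300 bp around the peak centre, the median GC content was 56.3% for kept, 57.0% for lost and 49.0% for gained peaks, where the genome as a whole had 41.8% and the windows around protein-coding start sites 58.7%. The CpG ratio, the number of CpG over that given by the C and G of the window, had medians of 0.450 for kept, 0.183 for lost and 0.240 for gained peaks, and 0.595 for start sites. Windows with a ratio over 0.6 and over 50% GC, called CpG-rich here, made up 30.2% of the kept peaks (27.8 to 32.6), 10.1% of the lost peaks (9.44 to 10.8), 8.70% of the gained peaks (7.90 to 9.57) and 48.0% of start sites. Promoter peaks showed the same order, with median CpG ratios of 0.515 for kept, 0.323 for lost and 0.335 for gained peaks. Of the CpG-rich ES peaks 37.0% were kept (34.2 to 39.8), against 13.3% of the others (12.5 to 14.0). The GC content moved with the library as well as with the class. Its median over a whole list was 57.0% for wild type ES, 50.0% for wild type NPC, 53.7% for PCGF5-depleted ES and 54.7% for PCGF5-depleted NPC, and for H3K27me3 it was 59.3% in wild type ES and 53.7% in wild type NPC. The part of library composition in the difference between lost and gained peaks was not tested.

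The classes also differed in simple repeats. A perfect tandem repeat of at least 24 bp with a unit of 1 to 6 bases lay in 13.1% of the kept windows (11.5 to 15.0), 13.5% of the lost (12.7 to 14.3) and 22.5% of the gained (21.3 to 23.8), against 7.19% of windows sampled across the genome and 2.82% of start sites. Among the gained peaks the commonest unit was AC (CA or TG as read from another base or strand), the longest repeat in 585 of 986 windows, as in the Isl1 and Tbx3 stretches above. AC repeats lay in 14.4% of gained windows (13.4 to 15.5), 7.09% of kept windows and 2.44% of lost windows (2.11 to 2.82), against 2.60% of the genome. Among the lost peaks it was the hexamer AGAGGC, the longest repeat in 387 of 975 windows, which is the repeat of the Coro2b stretch. At the top of the lists these shares were larger. In the highest 10% of scores, 43.0% of 316 gained peaks lay on a repeat and 32.0% on AC, while of 608 lost peaks 46.1% lay on a repeat and 30.6% had AGAGGC as the longest. The gained peaks on repeats were less often accompanied by H3K27me3, since 35.7% of the gained peaks without H3K27me3 (32.8 to 38.7) but 18.5% of those with it (17.2 to 19.9) lay on a repeat. Short tandem repeats occur at many places in the genome, and the placement of their reads was not tested. The repeat share moved with the library as well as with the class. Over whole H2AK119ub1 lists it was 13.4% in wild type ES, 21.5% in wild type NPC, 25.1% in PCGF5-depleted ES and 26.2% in PCGF5-depleted NPC. The AC share was 3.21%, 13.6%, 6.39% and 9.15% in the same order. For H3K27me3 the AC share was 2.76% in wild type ES and 7.68% in wild type NPC. The part of library composition in the repeat differences between classes was not tested. Leaving out all peaks on repeats lowered the ES and NPC lists to 7510 and 4516 peaks and left 492 genes marked at both stages, 912 in ES alone and 461 in NPC alone.

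At the level of genes, 2046 of 22232 protein-coding genes were marked. A peak at the promoter was found at both stages for 550 genes (2.47%), in ES alone for 938 (4.22%) and in NPC alone for 558 (2.51%), and these shares of all genes are the background against which each gene class is read below. When both lists were cut to an equal number of their best peaks, 654 genes were marked in ES alone and 645 in NPC alone, so the excess on the ES side was nearly absent at equal list length. Of the 550 genes marked at both stages, 383 (69.6%, 65.7 to 73.3) had an ES and an NPC peak that overlapped, and 318 had more promoter sequence under peaks in NPC than in ES. H3K27me3 lay at the promoter of 95.5% of them in ES and 97.5% in NPC. Genes marked in ES alone had H3K27me3 in 70.6% of cases in ES (67.6 to 73.4) and 53.0% in NPC (49.8 to 56.2). For genes marked in NPC alone it was 59.5% in ES (55.4 to 63.5) and 92.3% in NPC (89.8 to 94.2), and for unmarked genes 7.22% and 9.57%. Genes found at 1 stage rested on fewer peaks, as 70.7% of the ES alone and 66.3% of the NPC alone genes had 1 peak, and they seldom had a peak of the other stage close by, with 64 of 938 and 68 of 558 genes having 1 within 10 kb of a start site. In PCGF5-depleted ES 75.1% of the genes marked at both stages carried the mark, against 33.4% of the ES alone genes, and in PCGF5-depleted NPC 72.5% did, against 29.2% of the NPC alone genes.

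**Figure D3:**
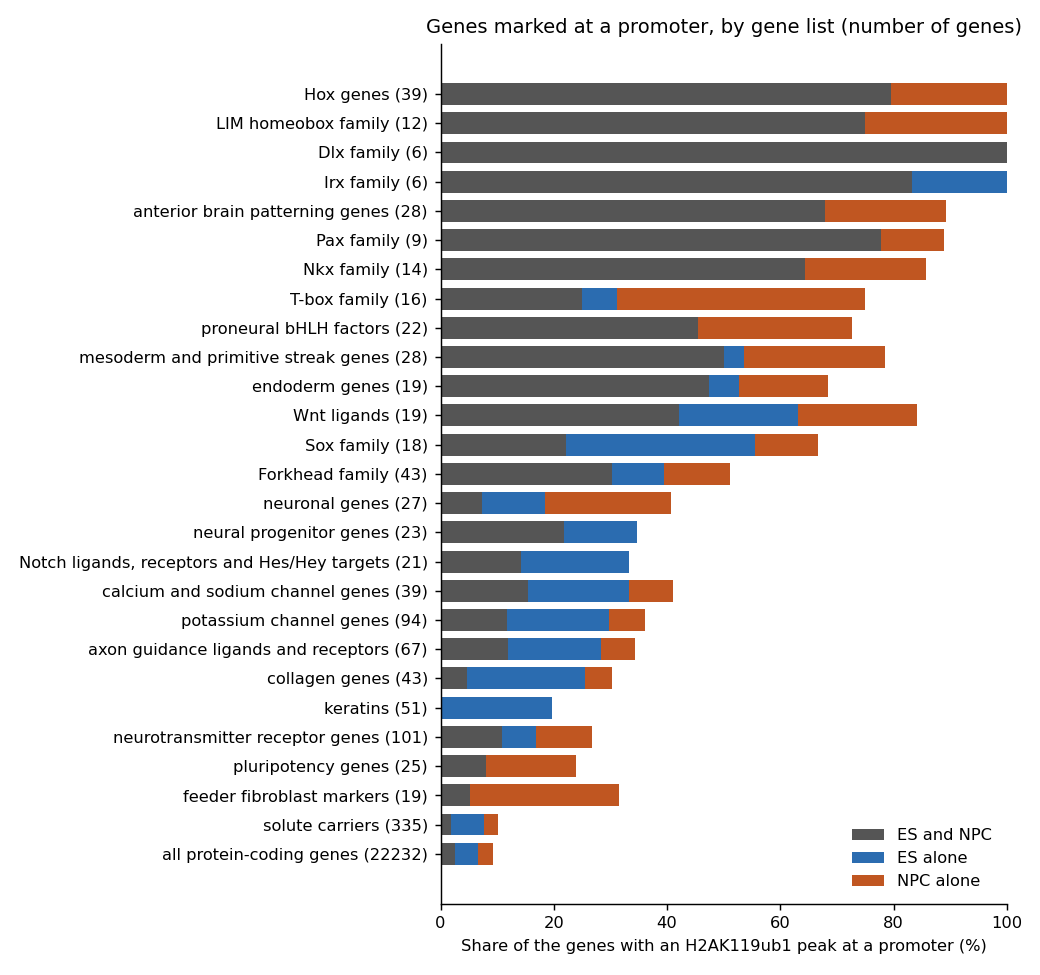
Share of the genes of each list, in percent, with an H2AK119ub1 peak at a promoter in both wild type ES and NPC, in ES alone or in NPC alone, with the number of genes in parentheses. The Hox, LIM homeobox, Dlx and Irx lists were marked in full, the keratins in ES alone, and all protein-coding genes at 2.47%, 4.22% and 2.51%.

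The Hox genes, homeobox factors that set position along the body axis, showed the widest extension. Of 39 Hox genes, 31 were marked at both stages (79.5%, against 2.47% of all genes), 8 in NPC alone (20.5%, against 2.51%) and 0 in ES alone. The 8 were Hoxa4, Hoxb4, Hoxb9, Hoxc4, Hoxc10, Hoxc12, Hoxc13 and Hoxd4. The promoter sequence under peaks, counted within 2500 bp of any start site of the gene, was longer in NPC for all 39 genes, with a median of 808 bp in ES and 4042 bp in NPC. At Hoxd3 it went from 3373 to 19339 bp, at Hoxb3 from 2946 to 12097 bp, at Hoxc6 from 210 to 9137 bp and at Hoxa9 from 2844 to 8554 bp. The smallest differences were those of Hoxd1, from 215 to 397 bp, and Hoxb1, from 532 to 1044 bp, both genes at the 3′ ends of their clusters. The fold enrichment given here for a gene is that of its highest-scoring promoter peak, on the scale of its own library. Such values were set separately in each library, so an ES and an NPC value of a gene stand side by side below without a reading of their difference.

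Over whole clusters, 154 ES peaks covered 52328 bp and 361 NPC peaks covered 301169 bp. Of the 154 ES peaks there 147 were kept (95.5%), whereas of all ES peaks 16.4% were kept. NPC peaks covered from 84938 of 178941 bp at Hoxb to 85290 of 120741 bp at Hoxc, but 2.33 Mb over the whole genome. An overlap of 1 bp is thus likely anywhere in the clusters, so this contrast does not show that single ES peaks were retained. Hoxa (chr6:52102866-52213374) went from 50 to 77 peaks and from 19525 to 76451 bp, 3.92-fold. Hoxb (chr11:96053130-96232070) went from 49 to 102 peaks and from 15532 to 84938 bp, 5.47-fold. Hoxc (chr15:102749034-102869774) was the least covered in ES, with 19 peaks over 5654 bp, and had 106 peaks over 85290 bp in NPC, 15.1-fold. Hoxd (chr2:74503867-74605700) went from 36 to 76 peaks and from 11617 to 54490 bp, 4.69-fold. The covered length of H3K27me3 was larger in NPC over the same clusters, from 14404 to 91083 bp at Hoxa, 16959 to 109108 bp at Hoxb, 4188 to 102439 bp at Hoxc and 13086 to 72300 bp at Hoxd. Both marks thus covered much of each cluster in NPC and short separate stretches of it in ES. When peaks within 1000 bp were merged, 17 Hox genes were counted in ES alone and 1 in NPC alone, as the centres of the merged NPC regions lay farther than 2500 bp from many start sites. The count of genes, unlike the covered length, therefore depends on how a region is represented by its centre.

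**Figure D4:**
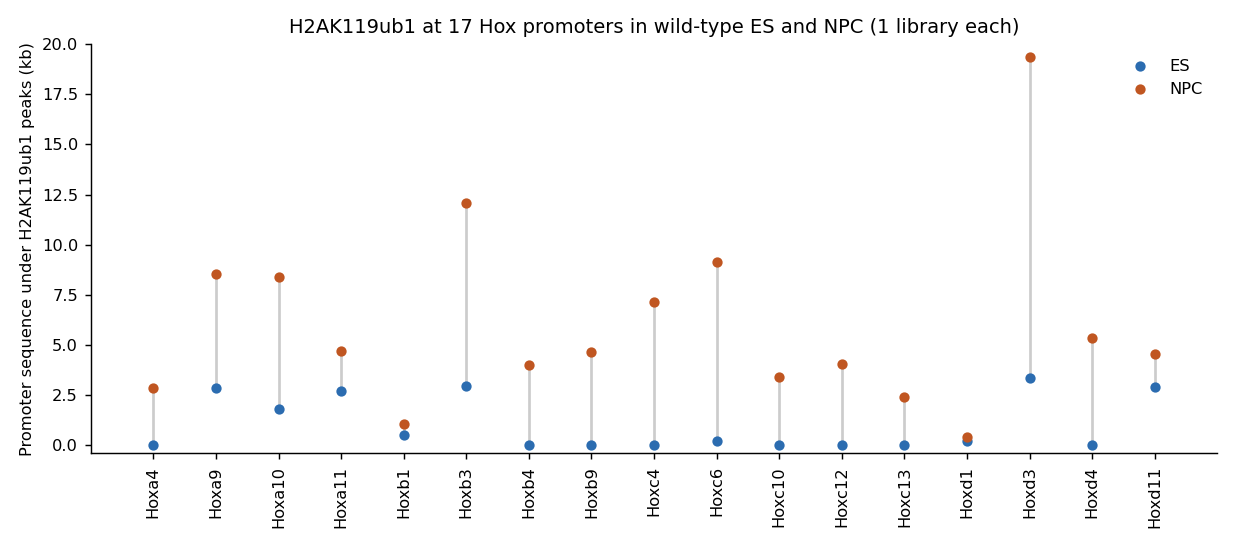
Promoter sequence under H2AK119ub1 peaks, in kb, in wild type ES and NPC, 1 library each, at the 17 Hox genes named in the text. Lines join the values of a gene, and each NPC value lies above the ES value, from 397 bp at Hoxd1 to 19339 bp at Hoxd3 in NPC.

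Other homeobox families that pattern the embryo were also marked at both stages. Of 28 anterior brain patterning genes, 19 were marked at both stages (67.9%), 6 in NPC alone (21.4%) and 0 in ES alone. Six3, a regulator of forebrain and eye, had 6 ES peaks over 5653 bp and 13 NPC peaks over 4920 bp of its promoter, so the peaks were more numerous without covering more. Pax6, needed for eye and cortex, went from 9 peaks over 4747 bp to 20 peaks over 10494 bp, and Lhx2, of the telencephalon and eye, from 4990 to 4467 bp. Fezf1, Six6, Otx2 and Gbx2 were among the 6 in NPC alone. Otx2, needed for forebrain and midbrain and already expressed in early epiblast, had 9 NPC peaks over 2904 bp and 0 in ES, and H3K27me3 at its promoter followed with 0 peaks in ES and 8 in NPC. Fezf1, a forebrain zinc finger factor, had 3 NPC peaks over 1740 bp, and in its case H3K27me3 was present at both stages, with 4 peaks in ES and 3 in NPC. In this list, then, genes changed class in 1 direction, towards the mark in NPC.

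All 12 LIM homeobox genes, many of which specify neuron types, were marked, 9 at both stages and 3 in NPC alone. Lhx5 covered 2592 bp in ES and 2698 bp in NPC, with a fold enrichment of 8.24 in the ES library and 11.65 in the NPC library, while Lhx1 went from 4310 to 5773 bp. Isl1, of motor neurons and heart progenitors, had 5 NPC peaks over 1861 bp with a fold enrichment of 10.54 and 0 in ES, with its top peak on the CA repeat printed above. Lhx4, of pituitary and motor neurons, was counted in NPC alone with 2 peaks over 1458 bp, although 516 bp of an ES peak also reached its window. All 6 Dlx genes, which act in ventral forebrain and branchial arches, were marked at both stages, with Dlx1 going from 1447 to 4873 bp and Dlx6 from 637 to 3208 bp. The 6 Irx genes were also all marked, 5 at both stages, and Irx5 in ES alone with 1434 bp, where 277 bp of an NPC peak reached the window. Of 9 Pax genes 7 were marked at both stages and Pax8 in NPC alone. Of 14 Nkx genes it was 9 and 3, with Nkx2-5, a cardiac factor, going from 974 to 3350 bp, and Nkx2-2, of the ventral neural tube, from 1379 to 887 bp. Of the Zic genes, Zic4 went from 7 peaks over 2315 bp to 17 peaks over 9254 bp, with a fold enrichment of 5.74 in the ES library and 13.33 in the NPC library, and its neighbour Zic1, an early neural gene, went from 1237 to 2563 bp.

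The list of proneural bHLH factors, most of which commit progenitors to the neuronal fate, had genes marked at both stages or in NPC alone. It also holds related factors of other tissues, such as Tal1 and Lyl1 of blood and Ascl2 of the placenta. Of 22, 10 were marked at both stages (45.5%), 6 in NPC alone (27.3%) and 0 in ES alone. Olig2, of motor neuron and oligodendrocyte progenitors, covered 2285 bp in ES and 2534 bp in NPC. Neurog2 went from 322 to 629 bp and Ptf1a, of inhibitory neurons and pancreas, from 322 to 1739 bp. All 10 had more bases covered in NPC. Neurod1, which acts later in neuronal differentiation, had 4 NPC peaks over 1347 bp, and Olig3 had 1 of 1248 bp, and both were at 0 in ES. The direction of this list, as of the anterior brain, LIM, Nkx and T-box lists, was the same under the 10 alternatives that can alter a gene list.

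Few genes of neural progenitors changed class. Of 23, 5 were marked at both stages (Pax6, Pou3f3, Zic1, Pou3f1 and Sox21), 3 in ES alone (13.0%, against 4.22% of all genes) and 0 in NPC alone. At equal list length it was 1 in ES alone and 0 in NPC alone, and in the higher-scoring 50% of each list 2 and 1. Dll1, a Notch ligand of differentiating neural progenitors, was the best supported of the 3, with 4 ES peaks over 2215 bp and a fold enrichment of 6.45. The 630 bp peak printed above lies 719 bp from a start site. No NPC peak was found at Dll1, although H3K27me3 remained with 5 peaks in ES and 4 in NPC. Hes5, a Notch effector, had 1 ES peak of low fold enrichment, 2.68, and Nes, which encodes the intermediate filament nestin, had 1, at a fold of 3.94. The Notch list, which holds Dll1 and Hes5 as well, had 3 of 21 genes at both stages, 4 in ES alone and 0 in NPC alone, and 3 and 1 at equal list length. Those 4 were Dll1, the ligand Jag2 with 365 bp, the Notch glycosyltransferase Lfng with 467 bp, and Hes5. Dll4, a ligand of blood vessels, stayed marked, with 2503 bp in ES and 1767 bp in NPC. Among the Sox factors, Sox4 and Sox11, of immature neurons, were marked in ES alone with 581 bp at a fold of 7.89 and 433 bp at a fold of 6.45, and both had H3K27me3 in ES (1 and 2 peaks) and 0 peaks in NPC. Sox10, of neural crest and glia, was in ES alone with 692 bp, and the endoderm genes Sox17 (1825 bp) and Sox7 (284 bp) were in NPC alone. In all, 4 of 18 Sox genes were marked at both stages, 6 in ES alone, with Sox18 and Sox8 also among them, and 2 in NPC alone. The ES alone genes described here are a part of those 6, so no contrast between neural and endoderm Sox genes is drawn from them. Pou3f1 had less in NPC, from 926 to 263 bp, and Sox21 more, from 382 to 943 bp.

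Genes of mature neurons were mixed. Of 27, 2 were marked at both stages, 3 in ES alone and 6 in NPC alone. Slc32a1, the vesicular transporter of inhibitory neurons, went from 2238 to 1256 bp and Rbfox3, the neuronal splicing factor NeuN, from 5292 to 857 bp. Th, the rate-limiting enzyme of dopamine synthesis, had 6 ES peaks over 1511 bp and 0 in NPC, within the region of chromosome 7 described below, and Mapt, which encodes tau, had 1 of 212 bp. In NPC alone were the neurofilament genes Nefl (586 bp), Nefh (678 bp) and Ina (293 bp), Slc17a6, a vesicular glutamate transporter (529 bp), and the GABA-producing enzymes Gad1 (713 bp) and Gad2 (1080 bp). H3K27me3 lay at 11 of the 27 promoters in ES and 19 in NPC. With a promoter window of 1000 bp the neuronal list had 4 genes in ES alone and 3 in NPC alone, so its direction depends on the window.

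Some pluripotency genes were newly marked in NPC. Of 25, 2 were marked at both stages (8%), 4 in NPC alone (16%) and 0 in ES alone. Tbx3, a T-box factor of ES self-renewal, was the gene marked in NPC alone with the highest score, with 8 peaks over 5720 bp at a fold enrichment of 11.05, and H3K27me3 at its promoter went from 0 to 5 peaks. Its top peak lies on the TG and AG repeat printed above. Prdm14, which represses differentiation genes in ES, had 4 NPC peaks over 896 bp, Klf4 1 of 258 bp and Klf2 1 of 172 bp, and at these H3K27me3 went from 0 to 3, 3 and 1 peaks. Esrrb, an orphan nuclear receptor, went from 212 to 803 bp and Fgf4, a growth factor of the inner cell mass, from 139 to 479 bp. H3K27me3 lay at 1 of the 25 promoters in ES and 12 in NPC. The core factors Pou5f1 and Nanog had 0 H2AK119ub1 peaks at either stage.

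Regulators of the mesoderm and endoderm were largely marked in NPC, as were the anterior brain and proneural lists above. An NPC peak lay at 21 of 28 mesoderm and primitive streak genes and 12 of 19 endoderm genes. It lay at 25 of 28 anterior brain genes and 16 of 22 proneural factors, so this marking was not particular to other lineages. Of 28 mesoderm and primitive streak genes, 14 were marked at both stages, 7 in NPC alone and 1 in ES alone. Gene by gene, Foxc2 covered 1975 bp in ES and 2921 bp in NPC, and Evx1, of the posterior streak, 978 and 4412 bp. Eomes, of the streak and later the cortex, had 4 NPC peaks over 2268 bp, Tcf21 6 over 1926 bp and Tbx20, of the heart, 4 over 1903 bp, with 0 in ES. The exception was T (brachyury), with 1 ES peak and 0 in NPC, and with 2 H3K27me3 peaks at both stages. Of 19 endoderm genes it was 9, 3 and 1, with Gata4 going from 2029 to 3912 bp, Gata6 from 1169 to 2763 bp, Foxa1 in NPC alone with 635 bp, and Hnf4a in ES alone with 246 bp at a fold of 3.19. Of 16 T-box genes, which overlap these lists, 4 were marked at both stages, 7 in NPC alone and 1 in ES alone. Tbr1, of cortical neurons, was among the 7, with 5 peaks over 2857 bp at a fold of 9.54. Tbx5, of heart and forelimb, went from 174 to 3890 bp. Of 16 neural crest genes 6 were marked at both stages, 4 in NPC alone (Msx2, Twist1, Foxd3 and Ngfr) and Sox10 in ES alone. Of 43 Forkhead genes 13 were marked at both stages, 4 in ES alone and 5 in NPC alone, which became 7 and 6 with the 1000 bp window.

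Because the ES grew on fibroblast feeders, markers of fibroblasts were read in the same way. Of 19, 1 was marked at both stages (Twist2, 321 and 297 bp), 5 in NPC alone (Tbx15, Twist1, Thy1, Prrx1 and Tbx18) and 0 in ES alone. H3K27me3 lay at 8 of the 19 in ES and 9 in NPC. How much DNA of feeder cells the ES library held was not tested.

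Cell cycle inhibitors differed by gene. Of 8 CDK inhibitors, 3 were marked in NPC alone, 1 in ES alone and 0 at both stages. Cdkn2a, which encodes the p16 and p19 inhibitors, had 6 NPC peaks over 2692 bp at a fold enrichment of 9.79 and 0 in ES, and H3K27me3 went from 0 to 10 peaks. Its neighbour Cdkn2b had 1 NPC peak of 169 bp and Cdkn2c 3 over 963 bp. Cdkn1c, which encodes p57 and is imprinted, had 1 ES peak with 1775 bp in the window and 0 in NPC. Among Polycomb genes themselves, Bmi1 (Pcgf4), a PRC1 subunit, had 7 NPC peaks over 1929 bp and 0 in ES, while Cbx8, a chromodomain reader of H3K27me3, was marked at both stages, with 1691 and 969 bp. In total 4 of 27 PRC1 genes and 0 of 11 PRC2 genes were marked, and Pcgf5 had 0 peaks at either stage.

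Of 31 imprinted genes 5 were marked at both stages, 4 in ES alone and 1 in NPC alone. Grb10, a growth factor receptor adaptor, had 3 ES peaks over 895 bp and 11 NPC peaks over 6780 bp. Dio3, a thyroid hormone deiodinase, went from 523 to 1618 bp, and Igf2, a growth factor, from 12 peaks over 4746 bp to 7 peaks over 3118 bp. Kcnq1 (1472 bp), Slc22a18 (140 bp), Dlk1 (161 bp) and Cdkn1c were marked in ES alone and Ascl2, a placental bHLH factor, in NPC alone with 473 bp.

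Among the signalling pathways, the Wnt ligands were marked most often and without a direction. Of 19 Wnt ligands, 8 were marked at both stages, 4 in ES alone and 4 in NPC alone. Wnt3, which starts the primitive streak, was among the ES alone genes with 3 peaks over 1301 bp, beside Wnt2b (1029 bp), Wnt4 (638 bp) and Wnt9a (398 bp), and Wnt6 (852 bp), Wnt7a (689 bp), Wnt16 (407 bp) and Wnt2 (251 bp) were in NPC alone. Of 21 Wnt receptors and secreted antagonists 0, 2 and 3 were. Of 22 FGF ligands 5 were marked at both stages, 2 in NPC alone and 0 in ES alone. Fgf8, a signal of the isthmus, went from 974 to 1200 bp, and Fgf9 from 1888 to 520 bp, while Fgf5, of the epiblast, had 135 bp in NPC alone. Of 20 BMP and GDF ligands 3 were marked at both stages, 2 in ES alone and 2 in NPC alone, with Bmp4, an inhibitor of neural induction, at 380 bp in NPC alone and Bmp6 at 454 bp in ES alone. Of 15 BMP antagonists 1 was marked at both stages and 2 in ES alone, namely Chrd, the neural inducer chordin, with 3 peaks over 1256 bp, and Fst, follistatin, with 326 bp. Of 18 retinoic acid genes it was 3, 1 and 2, with Cyp26b1, which degrades retinoic acid, at 1821 and 1733 bp. Of 14 Hedgehog pathway genes Shh (728 and 530 bp) and Ihh (1724 and 1738 bp) were marked at both stages and Dhh (592 bp) in NPC alone. Of 28 Nodal and TGF-β pathway genes 2 were marked at both stages and 1 at each stage alone.

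Channel, guidance and matrix genes were marked more often in ES alone than in NPC alone. Of 94 potassium channel genes 11 were marked at both stages, 17 in ES alone (18.1%, against 4.22% of all genes) and 6 in NPC alone. Kcnj11, the pore of the ATP-sensitive channel, was among the 17 with 2 peaks over 1272 bp. Of 39 calcium and sodium channel genes 6, 7 and 3 were, with the T-type channel gene Cacna1g in ES alone over 1260 bp. Of 67 axon guidance genes 8 were marked at both stages, 11 in ES alone, among them the Eph receptors Epha8 (913 bp) and Ephb1 (961 bp), and 4 in NPC alone, among them Robo3 (705 bp), a receptor of commissural axons. Of 43 collagen genes 2 were marked at both stages, 9 in ES alone (20.9%) and 2 in NPC alone, with the fibril collagen of cartilage Col2a1 (390 bp) and the basement membrane pair Col4a1 and Col4a2 in ES alone. Of 101 neurotransmitter receptor genes 11 were marked at both stages, 6 in ES alone, led by the glutamate receptor Grm4 with 3 peaks over 2313 bp, and 10 in NPC alone, led by the glutamate receptor Gria2 (231 bp). The last list turned to 8 and 7 genes without peaks on repeats, so its direction depends on those peaks. Of 335 solute carriers 6 were marked at both stages, 20 in ES alone (5.97%) and 8 in NPC alone (2.39%), which is close to the background.

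The keratins, filament proteins of epithelia and hair, were marked in ES alone. Of 51 genes 10 were (19.6%), with 0 at both stages and 0 in NPC alone. Krt71, a keratin of the hair root sheath, had 1 peak over 351 bp at a fold enrichment of 5.38 in its coding exon and 0 H3K27me3 peaks at either stage. Krt80 covered 293 bp, Krt82 275 bp and Krt81 139 bp. H3K27me3 lay at 16 of the 51 promoters in ES and 3 in NPC. Keratin genes lie side by side and resemble each other, so the assignment of reads between copies is uncertain. Since all genes had more members in ES alone, the lists were also counted at equal list length, where all genes had 654 in ES alone and 645 in NPC alone. There 7 keratins were marked in ES alone and 0 in NPC alone, 14 and 7 potassium channel genes, 10 and 5 axon guidance genes, and 6 and 2 collagen genes.

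Several families used in most cells or in sensory neurons had no marked members or small counts of them, although not all their shares lay below the background. The 79 ribosomal protein genes, 67 replication-dependent histone genes, 91 respiratory chain genes and 321 vomeronasal receptor genes had 0 promoter peaks at either stage. Of 1113 olfactory receptor genes 4 were marked in ES alone (0.359%, against 4.22% of all genes) and 1 in NPC alone (0.0898%, against 2.51%). Of 39 proteasome genes 2 were marked in ES alone (5.13%, near the background of 4.22%). These were Psmb8 (324 bp) and Psmb9 (377 bp), interferon-induced subunits of the immunoproteasome. Of 367 Zfp zinc finger genes 4 were marked at both stages (1.09%), 4 in ES alone (1.09%) and 5 in NPC alone (1.36%). Of 24 clustered protocadherins, the cell identity receptors of neurons, 2 were marked in ES alone (8.33%, above the background of 4.22%), Pcdhgc5 and Pcdha11.

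The genes with the highest-scoring promoter peaks were of different kinds in each class. At both stages the first 10 by the lower of the ES and NPC score percentiles included Gm13285, Gm13287 and 7 homeobox or bHLH regulators, namely Hoxa9, Hoxd11, Lhx5, Sim2, Six3, Gsx1 and Lhx2. Gm13285 and Gm13287 are neighbouring models that share their highest NPC peak. In ES alone the first 10 were Muc19, Dux, Coro2b, 4933403O03Rik, Gm3715, Naip2, Flg, B230312A22Rik, Dnahc14 and Grm4. Several of these hold internal repeats or belong to multicopy families, such as the mucin Muc19, the filaggrin gene Flg, the homeobox array gene Dux and the Naip family, so their values are uncertain, and the top peaks of Coro2b, Naip2 and B230312A22Rik lay on tandem repeats. Grm4, with 2313 bp at a fold of 8.60, was the only one of these 10 that is also in a gene list above. In NPC alone they were Tbx3, Gm10419, Isl1, Hoxc12, Cdkn2a, Ankrd33b, Tbr1, Lhx4, Gm53 and Pthlh. The top peaks of Tbx3, Isl1, Hoxc12 and Ankrd33b lay on AC repeats, while those of Cdkn2a, Tbr1, Lhx4 and Pthlh, a peptide hormone related to parathyroid hormone, did not. Tbx3 had 8 promoter peaks, Isl1 5, Hoxc12 3 and Ankrd33b 3, so each had peaks besides the top one. Whether those further peaks also lay on repeats was not tested.

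Peaks of each class were unevenly spread over the genome. In bins of 500 kb, 953 bins held ES peaks and no NPC peak, 443 held NPC peaks and no ES peak, and 916 held both. The 10 bins with most peaks of a class held 22.5% of the kept, 8.10% of the lost and 13.6% of the gained peaks. The classes differed in size, with 1425 kept peaks in 397 bins, 7247 lost in 1814 and 4378 gained in 1270. These shares therefore do not rank the classes by unevenness. The largest loss was on distal chromosome 7 (chr7:149500001-151000000), an imprinted domain of 1.5 Mb with Igf2, Ins2, Th, Ascl2, Kcnq1, Cdkn1c, Slc22a18, Phlda2 and Osbpl5. It held 212 ES peaks over 64157 bp, of which 7 were kept and 45 had H3K27me3, and 13 NPC peaks over 4889 bp. PCGF5-depleted cells had 57 peaks there in ES and 14 in NPC. The H3K27me3 list had 106 peaks over 36799 bp in ES and 25 over 35261 bp in NPC, so its covered length was alike at both stages while that of H2AK119ub1 was not. Only 7 of the 212 ES peaks lay on tandem repeats. Their median fold enrichment was 4.66 and their median width 253 bp.

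Next to it in size was a stretch of chromosome 6 (chr6:114000001-115000000) with the GABA transporter gene Slc6a11, the histamine receptor gene Hrh1, the autophagy gene Atg7 and Vgll4. It held 167 ES peaks, of which 11 were kept, 133 had H3K27me3 and 36 lay on repeats, and 16 NPC peaks. Here PCGF5-depleted cells had 133 peaks in ES and 104 in NPC, and H3K27me3 had 157 and 58. Further bins that were mostly lost were those of Nkx1-1 and Spon2 on chromosome 5 (64 ES and 7 NPC peaks), Megf6 and Trp73 on chromosome 4 (48 and 7), Kif26a on chromosome 12 (44 and 2) and Wnt4 and Epha8 on chromosome 4 (40 and 0). Among the bins with most gained peaks, after those of the 4 Hox clusters, came the bin of the T-box genes Tbx3 and Tbx5 on chromosome 5 (12 ES and 60 NPC peaks), Zic1 and Zic4 on chromosome 9 (9 and 45), Mesp1 on chromosome 7 (8 and 42) and Tcfap2b and Tcfap2d, AP-2 factors of neural crest and kidney, on chromosome 1 (0 and 36). Bins with many peaks at both stages held Foxc2 and Foxf1a on chromosome 8 (50 and 31, 23 of them kept), Six2 and Six3 on chromosome 17 (34 and 41), Pax7 on chromosome 4 (37 and 16) and Cbx8 and Rbfox3 on chromosome 11 (38 and 20). A pair of bins with 1 marked gene between them, the actin gene Acta1, also kept many peaks, on chromosome 6 from 47500001 (56 ES and 70 NPC peaks, of which 17 and 36 on repeats) and on chromosome 8 from 126000001 (57 and 80, of which 26 and 55 on repeats). The 5 widest kept peaks, up to 4861 bp in an intron of Gm20388, lay in these 2 array-like bins, and without the bins 15.6% of the ES peaks were kept.

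**Figure D5:**
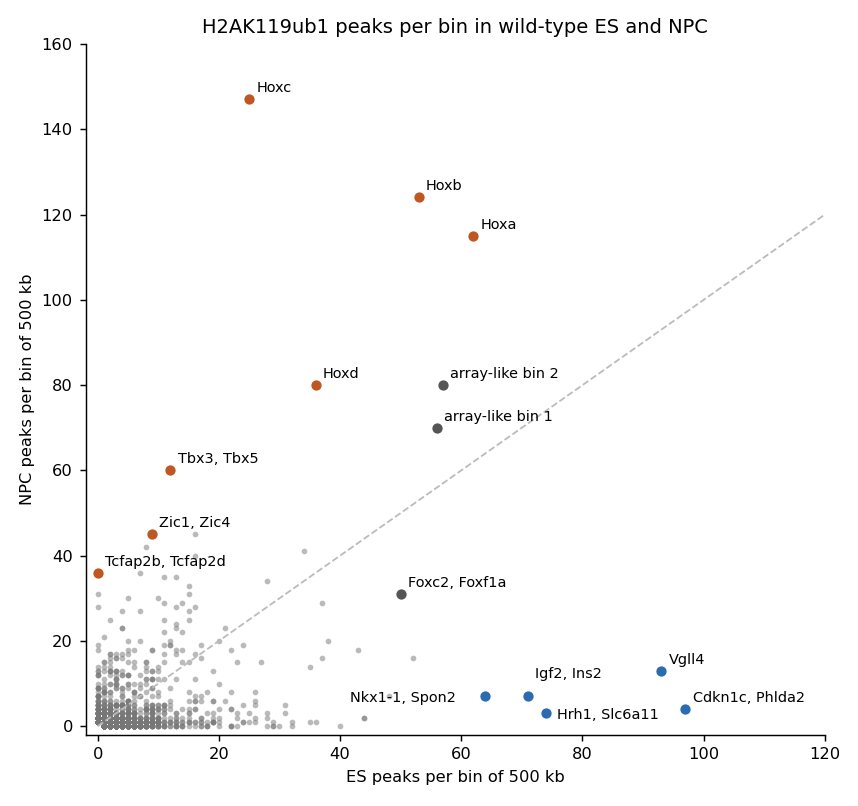
Number of H2AK119ub1 peaks in each bin of 500 kb in wild type ES (horizontal) and NPC (vertical), with 1 point per bin that held a peak and a dashed line of equal numbers. Coloured points are named bins from those with most gained (orange), lost (blue) or kept (dark grey) peaks, with the Hox clusters above the line and the chromosome 7 bins of Cdkn1c (97 and 4 peaks) and Igf2 (71 and 7) below it.

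The widest shared and gained peaks lay at or near Hox and T-box genes, unlike the widest kept peaks, which lay in the array-like bins above. The widest shared peak of NPC was 7411 bp at Hoxb3 (chr11:96182816-96190226), followed by 5969 bp at Hoxa10, and Tbx2 had 5207 bp. The widest gained peak was 6009 bp near Hoxb9 (chr11:96132851-96138859), then 3516 bp near Tbx3 and 2909 bp at Hoxc12. All 5 of the widest shared and all 5 of the widest gained peaks overlapped H3K27me3 in NPC. The widest lost peaks were narrower, with 2843 bp at Nkx6-1 (chr5:102091199-102094041), which nonetheless kept another promoter peak and went from 2687 to 520 bp, and 1775 bp at Cdkn1c (chr7:150644796-150646570). The others of the 5 widest lost peaks, from 1812 to 2373 bp, lay in an intron or between genes and not at promoters.

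PCGF5-depleted cells and Flag-tagged PCGF5 were read for the same peaks. Of the kept ES peaks 65.3% were found again in PCGF5-depleted ES (62.8 to 67.8), against 17.3% of the lost peaks (16.5 to 18.2). Of the shared NPC peaks 60.5% were found again in PCGF5-depleted NPC (57.9 to 63.1), against 15.1% of the gained peaks (14.1 to 16.2). Peaks common to both stages were more often common to both genotypes, although more than 30% of them were not. They were also wider, with medians of 309 bp for kept against 207 bp for lost and 402.5 bp for shared against 242 bp for gained peaks. Kept peaks had a median score percentile of 65.8 in the ES list, against 46.5 for lost peaks. The part of width and score in the shares found again was not tested. The shares found again also depended on the settings. Where 50% of a peak had to be overlapped, 50.9% of kept, 14.4% of lost and 9.09% of gained peaks were found again, and in the higher-scoring 50% of each list it was 76.2%, 28.6% and 24%. Flag-PCGF5 overlapped 0.421% of the kept and 0.442% of the lost peaks in ES, and 6.40% of the shared (5.22 to 7.81) and 3.20% of the gained peaks (2.72 to 3.76) in NPC. The Flag-PCGF5 list held 653 peaks in ES and 12013 in NPC, so the ES and NPC shares do not have the same reference. The part of list length in their difference was not tested. Flag-PCGF5 of NPC lay at 26.9% of the promoters marked at both stages (23.4 to 30.8), 19.5% of those marked in ES alone, 18.5% of those marked in NPC alone and 13.0% of the unmarked promoters.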

How the data were processed

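ChIP-seq peak lists of H2AK119ub1 in wild type ES and NPC, 1 library each, were analysed as deposited. Per the study's methods, the authors' reads were quality-trimmed (Trimmomatic), those too short were discarded, and the rest were mapped to mm9 (Bowtie2) and freed of duplicates (Picard). Peaks of the histone marks were called with MACS2 (2.1.0 per the labels), and each deposited list belongs to 1 library. The drosophila spike-in does not enter the lists. The deposited columns hold the MACS2 score, the fold enrichment over background, the −log10 p-value and the −log10 q-value, which the authors' caller set within each library. They were used to rank and describe peaks inside their own list, and where fold values of different libraries stand side by side their scales may differ. For the −log10 p-value the lowest entry was 4.03 in ES and 4.02 in NPC. The methods state default parameters, but 0.304% of lost and 4.75% of gained peaks had a q-value above 0.05, so the threshold used is unsure. No file gave the depth, so the precision it gives is unknown.

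From these, peaks were overlapped, assigned to GENCODE M1 start sites on NCBIM37 and counted with Python 3.11.15 and numpy 2.4.6, and figures were drawn with matplotlib 3.10.9. Overlap counts were checked with bedtools 2.31.1, with 0 differences, and the scripts were tested on simulated data. All 86279 peaks lay within the chromosomes of this assembly. Base composition and repeats were read in windows of 300 bp. With 1 library a group no test was made, and intervals are 95% Wilson intervals. Genes were named by rule: the 10 with the highest promoter peaks in each class, up to 4 per class in each of 50 gene lists, those the study examined and those at the widest peaks. Some counts of 10 or fewer are named in full, and the bins, Hoxb1, Hoxd1 and other genes outside this rule were chosen after their values were seen. The members and the lists were chosen with earlier results of these data known. Alternatives are given in the closing section. Input libraries and the H3K27me3 lists of PCGF5-depleted cells were not used here. Some genes that this rule selects are not reported here.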

Additional observations from a re-analysis of the deposited data

Results flagged for a closer look

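Between the ES and the NPC list, the median peak width and fold enrichment differed with opposite signs in wild type and PCGF5-depleted cells. In wild type cells the median width of H2AK119ub1 peaks went from 217 bp in ES to 265 bp in NPC, a difference of 48 bp, and in PCGF5-depleted cells from 222 to 216 bp, a difference of -6 bp. The median fold enrichment went from 4.61 to 4.35 in wild type cells, a difference of -0.26, and from 4.00 to 4.91 in PCGF5-depleted cells, a difference of 0.91. Fold values were set separately in each of the 4 libraries, so their scales are not shown to be equal. With 1 library in each of the 4 groups the difference between the genotypes was not tested.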

How the results depend on the processing

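The results were recomputed under 11 alternatives where these apply. All 11 apply to the promoter shares, 10 to the counts of genes and the gene lists, and 9 to the shares kept, shared or with H3K27me3. The 50% overlap rule does not enter the assignment of peaks to genes, so it leaves the gene lists as they are. Of the 11, 3 were added after seeing the data (without the Hox clusters, without 2 array-like bins, without peaks on tandem repeats). The promoter share was highest in kept and lowest in lost peaks under all 11. Of these values, 74 moved by less than their 95% interval or within 1.5 times for counts, and 44 moved by more, as follows. When 50% of a peak had to be overlapped, 12.2% of ES peaks were kept and 14.8% of NPC peaks shared, H3K27me3 lay at 45.6% of kept and 29.8% of lost peaks, and 27.1% of lost and 39.5% of gained peaks were at promoters. In the higher-scoring 50% of each list, 15.2% were kept and 22.1% shared, H3K27me3 lay at 69.7% of kept, 48.9% of lost and 85.7% of gained peaks, 28.6% of lost peaks were at promoters, and 287 genes were marked at both stages, 612 in ES alone and 355 in NPC alone. When both lists were cut to an equal number of their best peaks, 19.4% were kept and 20.1% shared, H3K27me3 lay at 68.0% of kept and 41.7% of lost peaks, and the log2 ratio of genes in ES alone to genes in NPC alone went from 0.75 to 0.02. With a q-value of at most 0.01, 15.7% were kept, and H3K27me3 lay at 35.8% of lost and 78.6% of gained peaks. With peaks within 1000 bp merged, 12.4% were kept, 56.2% of kept and 22.3% of lost peaks were at promoters, and H3K27me3 lay at 71.7% of kept, 31.5% of lost and 63.2% of gained peaks. With a promoter window of 1000 bp, 23.9% of kept, 13.8% of lost and 16.0% of gained peaks were at promoters and 301 genes were marked at both stages. Without the Hox clusters 15.0% were kept and 49.5% of kept peaks were at promoters. Without the 2 array-like bins 15.6% were kept, 21.9% were shared and 55.5% of kept peaks were at promoters. Without peaks on repeats 15.6% were kept, 55.8% of kept, 28.1% of lost and 40.3% of gained peaks were at promoters, and H3K27me3 lay at 31.9% of lost and 80.9% of gained peaks. The shares found again in PCGF5-depleted cells gave 27 further values, of which 13 moved by more than their interval, among them gained peaks at 9.09% (50% overlap) and 24% (higher-scoring 50%) against 15.1%, and lost peaks at 28.6% (higher-scoring 50%) against 17.3%. The causes were not tested beyond the fewer peaks or narrower windows these alternatives contain.

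Of the 50 gene lists, the sign of the number in NPC alone less that in ES alone changed in 7. These were Hox (8 to -16, peaks merged), neuronal, Pax and Forkhead genes (to -1 with the 1000 bp window), Wnt receptors and antagonists (to -1 in the higher-scoring 50% and at a q-value of 0.01), neurotransmitter receptors (to -5 with the 1000 bp window, and -1 in the higher-scoring 50% and without repeats) and Zfp genes (to -2 in the higher-scoring 50%). No paired analysis was possible because each group had 1 library and no test was made. No file gave the read depth, and the NPC list is the shorter one, so absence from it is not shown to be loss of the mark.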
